A study of Mus musculus with 8 samples.

Results

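*Lrp2*, *Cubn*, *Kap*, *Fbp1*, *G6pc*, *Pck1*, *Gatm*, *Acy3* and *Aldrl6* are 9 genes of the proximal tubule, and their transcripts were followed in glomeruli isolated from mice with and without the tetraspanin CD151. The genes were listed by name, and a probe was taken as a member where its gene symbol equalled a listed name. Of the 9 genes, 8 had a probe, 1 each, among the 18120 gene symbols of the array, and *Cubn* was not analysed here. All 8 passed the detection filter, by which a probe was tested if at least 1 array detected it at a detection p-value of 0.05 or lower. Of these, *Kap*, *Aldrl6*, *Acy3*, *Fbp1* and *G6pc* were detected in all 8 mice. *Pck1*, *Lrp2* and *Gatm* were detected in *Cd151*-/- mice and in no *Cd151*+/+ mouse, so that they entered the test through 1 genotype.

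The 2 groups were 4 *Cd151*+/+ and 4 *Cd151*-/- mice, all male, of the FVB/N strain and 3 weeks old, with each mouse labelled a biological replicate and its RNA run on its own array. Loss of CD151, a surface protein that binds laminin-binding integrins, leads to a proteinuric disease of the glomerulus on this strain. The labels give the genotype only, so nothing restricts the loss of *Cd151* to the glomerulus. Glomeruli were collected on a magnet after perfusion with beads and digestion of the minced kidney, and the study set a minimum share of glomeruli per isolate. The p-values measure the spread between these mice, and the number of arrays limits the precision.

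In the kidney, the proximal tubule takes back what the glomerulus filters. Its brush border carries megalin (*Lrp2*) and cubilin (*Cubn*), large receptors that bind filtered proteins and bring them into the cell with the membrane protein amnionless (*Amn*). The same cells make glucose: phosphoenolpyruvate carboxykinase (*Pck1*), fructose bisphosphatase (*Fbp1*) and glucose-6-phosphatase (*G6pc*) catalyse the steps that distinguish gluconeogenesis from glycolysis. Of the remaining members, *Kap* encodes an androgen-regulated protein of the mouse kidney, *Gatm* the first enzyme of creatine synthesis, *Acy3* an aminoacylase that deacetylates mercapturic acids, and *Aldrl6* is an older name of *Miox*, myo-inositol oxygenase, which opens the ring of inositol.

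Promoters of 4 members are shown because they carry a TATA box, which was found in several members, or the element known from hormone control of *Pck1*. They are *Kap*, *Aldrl6* and *G6pc*, which were detected in every mouse, and *Pck1*. Each is the 250 bases before the transcription start in RefSeq's mouse assembly GRCm38.p6, written 5′ to 3′ on the strand of the gene, and the promoters of all 8 members with a probe were matched by symbol or synonym. *Kap* lies on the minus strand at chr6:133853668-133853917, *Aldrl6* on the plus strand at chr15:89334223-89334472, *G6pc* on the plus strand at chr11:101367466-101367715 and *Pck1* on the plus strand at chr2:173152823-173153072. Capitals mark a half-site of the cyclic AMP response element (TGACG) or a TATA box (TATAAA), each searched on both strands.
Kap: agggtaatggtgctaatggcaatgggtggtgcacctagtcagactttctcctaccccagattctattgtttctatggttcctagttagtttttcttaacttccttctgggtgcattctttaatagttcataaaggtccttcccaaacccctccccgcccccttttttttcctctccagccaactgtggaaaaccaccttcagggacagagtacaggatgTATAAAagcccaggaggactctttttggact
Aldrl6: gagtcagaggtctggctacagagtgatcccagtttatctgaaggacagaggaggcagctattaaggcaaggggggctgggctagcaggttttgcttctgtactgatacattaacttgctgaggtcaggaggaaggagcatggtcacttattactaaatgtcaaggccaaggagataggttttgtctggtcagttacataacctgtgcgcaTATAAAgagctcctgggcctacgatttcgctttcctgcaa
G6pc: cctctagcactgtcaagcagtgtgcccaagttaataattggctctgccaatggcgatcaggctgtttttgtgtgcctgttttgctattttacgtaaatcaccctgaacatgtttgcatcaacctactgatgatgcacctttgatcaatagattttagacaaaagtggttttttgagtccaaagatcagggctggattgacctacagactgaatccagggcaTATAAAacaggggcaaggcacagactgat
Pck1: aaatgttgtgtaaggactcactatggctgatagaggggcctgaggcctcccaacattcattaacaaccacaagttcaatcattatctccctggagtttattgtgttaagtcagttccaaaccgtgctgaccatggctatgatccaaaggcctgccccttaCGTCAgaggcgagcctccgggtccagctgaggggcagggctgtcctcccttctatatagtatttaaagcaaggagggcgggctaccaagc

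A TATA box was found in the promoters of 4 of the 8 members, against 12.4% of the 32851 promoters of the table, at 31 bases before the start in *Kap*, 40 in *Aldrl6*, 29 in *G6pc* and 30 in *Acy3*. The response element half-site was in 1 of the 8, at 90 bases before the start of *Pck1* on the minus strand, against 17.8% of all promoters. The core of the HNF4 site (CAAAGTC) was in 0 of the 8 and in 3.84% of all promoters. The windows of *Fbp1*, *Lrp2* and *Gatm* held no match to any of the 3 motifs. These are matches of letters and no test was made of them.

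Signals are given as normalised log2 signal, for which an estimate of background, made per array with the help of the detection p-values, was removed, 16 was added and the arrays were quantile-normalised. The genotype label was borne out by *Cd151* itself, whose 3 probes were detected in every wild-type mouse and in none of the knock-outs. The brightest of the 3 lay at 14.15 to 14.63 in *Cd151*+/+ mice and at 4.50 to 4.69, within background, in *Cd151*-/- mice (limma, adjusted p = 6.51e-10). The isolates held the RNA of glomeruli: 7 podocyte genes were detected in all 8 mice, among them *Cdkn1c*, a cell cycle inhibitor, which averaged 15.50 in *Cd151*+/+ glomeruli. Proximal tubule genes were detected in every mouse as well. The arrays fell into a set of 4 with an inferred background of 59.0 to 69.5 and a set of 4 with 123 to 135, on the scale of the deposited signal. *Cd151*+/+ mice 1 and 2 and *Cd151*-/- mice 3 and 4 made up the lower set, so each set held 2 mice of each genotype.

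After adjustment over the 14967 probes tested, 0 of the 8 genes passed in limma, compared with 0.0334% of all tested probes in either direction. The 5 genes detected in all mice each had a higher mean in *Cd151*-/- mice, and in each of the 8 genes the values of the genotypes overlapped. Of all tested probes, 0.855% did not overlap and were higher in *Cd151*-/- mice. At an unadjusted p under 0.05, 1 of the 8 was higher in *Cd151*-/- mice (*Kap*) and 0 were lower, against 1.69% and 2.61% of all tested probes. Over the 5 genes detected in all mice, the median difference was 0.70 on the log2 scale, compared with -0.03 over the 9495 probes detected in all mice. Without *Cd151*+/+ mouse 1 it was 0.35. In bulk RNA, a difference in the number of tubule cells in the isolate and a difference in RNA per cell cannot be told apart.

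*Kap* showed the largest difference of the 8. In *Cd151*+/+ mice 1 to 4 its normalised log2 signal was 6.70, 8.37, 7.62 and 7.37, and in *Cd151*-/- mice 1 to 4 it was 8.70, 7.99, 8.13 and 10.76. *Cd151*-/- mouse 4 stood above the rest, and the other 3 *Cd151*-/- mice lay within or just above the range of the *Cd151*+/+ mice. The means were 7.51 ± 0.69 and 8.90 ± 1.28 (SD, n = 4 each), a difference of 1.38 (SE 0.57, 95% confidence interval 0.13 to 2.64) or 2.61-fold. It had an unadjusted p of 0.0337 and an adjusted p of 0.918 in limma, and a two-sided exact permutation p of 0.0857, where 0.0286 is the smallest that 4 mice against 4 can give. Without *Cd151*-/- mouse 4 the difference was 0.76, with an unadjusted limma p of 0.0726. In the deposited signals, before any correction, *Kap* lay at 97.5 to 377 in *Cd151*+/+ mice and at 187 to 1113 in *Cd151*-/- mice.

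*Aldrl6* was detected at 12.47, 13.17, 13.55 and 14.21 in *Cd151*+/+ mice 1 to 4 and at 14.33, 13.63, 13.78 and 14.68 in *Cd151*-/- mice 1 to 4. *Cd151*+/+ mouse 1 was the lowest of the 8 and *Cd151*-/- mouse 4 the highest, and *Cd151*+/+ mouse 4 lay above *Cd151*-/- mice 2 and 3. The means of 13.35 ± 0.73 and 14.11 ± 0.49 (SD, n = 4 each) differed by 0.76 (SE 0.37, 95% confidence interval -0.06 to 1.57), with an exact permutation p of 0.114. Without *Cd151*+/+ mouse 1 the difference was 0.47. *Acy3*, the aminoacylase, was at 9.49, 10.80, 11.15 and 10.96 in *Cd151*+/+ and at 11.60, 10.17, 10.68 and 12.66 in *Cd151*-/- mice. Of the *Cd151*-/- mice, numbers 2 and 3 each lay below 3 of the *Cd151*+/+ mice, and numbers 1 and 4 above all of them. The difference was 0.67 (SE 0.52, 95% confidence interval -0.48 to 1.83), with an exact permutation p of 0.4. It was 0.21 when *Cd151*-/- mouse 4 was left out, 0.30 when *Cd151*+/+ mouse 1 was, and 1.05 when *Cd151*-/- mouse 2 was.

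Of the enzymes of gluconeogenesis, *Fbp1* and *G6pc* followed a similar course over the mice. *Fbp1* was at 10.60, 11.02, 11.89 and 12.67 in *Cd151*+/+ mice 1 to 4 and at 12.76, 11.75, 11.40 and 12.83 in *Cd151*-/- mice 1 to 4. The *Cd151*+/+ mice spanned nearly the whole range of the gene, with mouse 4 just under the highest *Cd151*-/- mice. The means of 11.54 ± 0.92 and 12.18 ± 0.72 (SD, n = 4 each) differed by 0.64 (SE 0.47, 95% confidence interval -0.40 to 1.68), with an exact permutation p of 0.314. Without *Cd151*+/+ mouse 1 the difference was 0.32, without *Cd151*-/- mouse 4 it was 0.42, and without *Cd151*+/+ mouse 4 it was 1.02. *G6pc*, whose product releases free glucose, was at 10.98, 11.29, 12.34 and 13.49 in *Cd151*+/+ and at 13.06, 12.16, 12.49 and 13.20 in *Cd151*-/- mice. Its highest value was in *Cd151*+/+ mouse 4, and the lowest 2 were in *Cd151*+/+ mice 1 and 2. The difference of 0.70 (SE 0.49, 95% confidence interval -0.38 to 1.79) had an exact permutation p of 0.343. It came to 0.35 when *Cd151*+/+ mouse 1 was left out, 0.46 when mouse 2 of that genotype was, and 1.19 when mouse 4 was.

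*Pck1*, *Lrp2* and *Gatm* lay near background. *Pck1*, the enzyme that commits oxaloacetate to glucose synthesis, was detected in 2 of 4 *Cd151*-/- mice, numbers 3 and 4, at 6.14 and 6.15. In *Cd151*-/- mice 1 and 2 it was at 4.96 and 4.97, and in *Cd151*+/+ mice at 4.89 to 4.99. These 6 mice, in none of which it was detected, differed little from each other. The means were 4.94 ± 0.05 and 5.55 ± 0.68 (SD, n = 4 each). Against the lowest detected signal of each *Cd151*+/+ array, the *Cd151*-/- mean was 1.13-fold higher. This is no strict lower bound, because *Cd151*-/- mice 1 and 2 lacked detection too. *Lrp2*, the megalin gene, was detected in *Cd151*-/- mice 1 and 4, at 5.28 and 5.83, and was at 4.81 and 5.10 in mice 2 and 3 and at 4.74 to 4.98 in *Cd151*+/+ mice. *Gatm* was detected in *Cd151*-/- mouse 4 alone, at 6.27, and was at 4.45 to 4.80 in the other 7 mice. No such fold is given for *Lrp2* and *Gatm*, because their *Cd151*-/- means of 5.26 and 5.05 were below the lowest detected signals of the *Cd151*+/+ arrays. *Pck1*, *Lrp2* and *Gatm* passed the detection filter through *Cd151*-/- mice alone, so no p-value is given for them here. The same detection pattern, on *Cd151*-/- arrays only, held for 1122 tested probes, and the opposite one for 989.

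**Figure D1:**
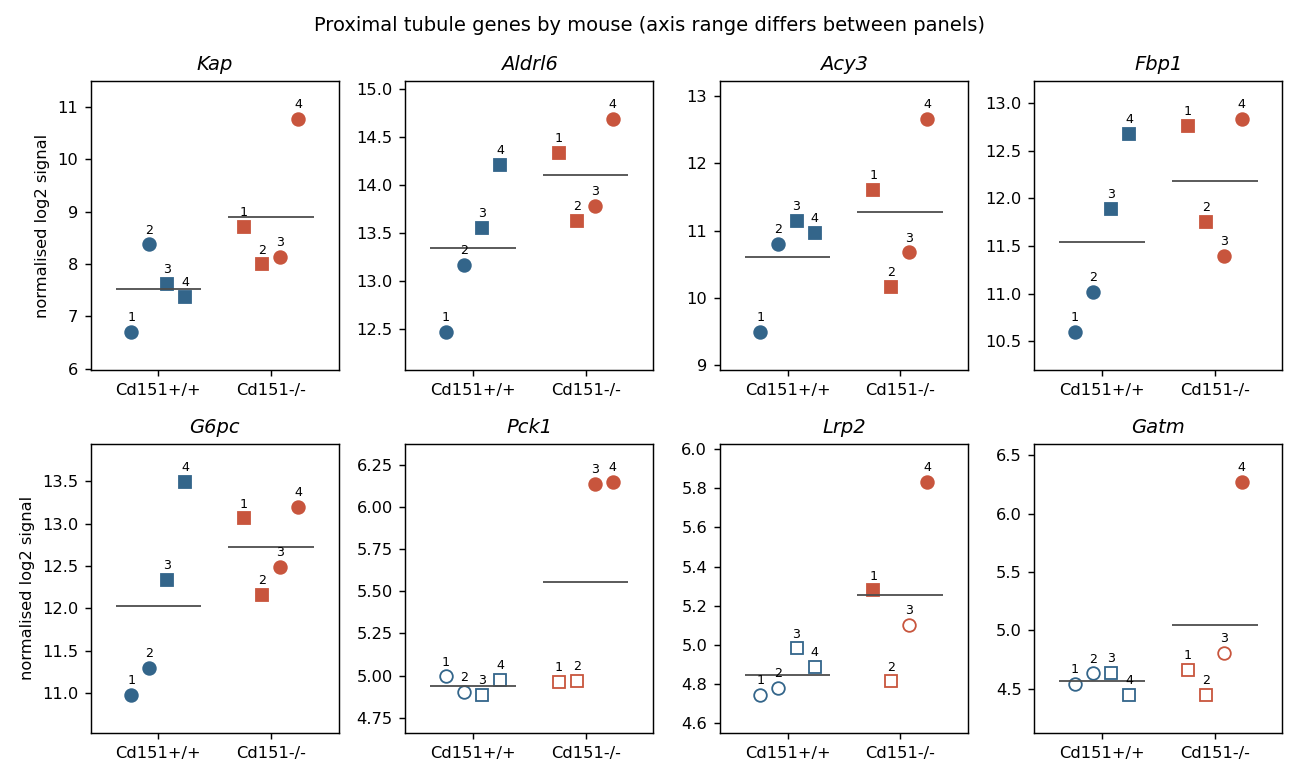
Normalised log2 signal of the 8 genes in each of the 8 mice, 1 panel a gene, with *Cd151*+/+ mice in blue, *Cd151*-/- mice in red, the mouse number above each point and the genotype mean as a line. Filled points were detected and open points were not, and circles and squares are arrays of the lower and higher background set. In all 8 panels the genotypes overlap, and *Cd151*-/- mouse 4 is the highest in 7 of them, the exception being *G6pc*. Of all tested probes, 0.855% did not overlap and were higher in *Cd151*-/- mice.

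The 5 genes detected in all mice varied widely within a genotype. The within-genotype standard deviation was 1.03 for *Kap*, 0.94 for *Acy3*, 0.87 for *G6pc*, 0.83 for *Fbp1* and 0.62 for *Aldrl6*, compared with a median of 0.38 over the probes detected in all mice. *Kap* lay at the 98.4th percentile of those probes and *Aldrl6*, the least variable of the 5, at the 83.0th. Between the highest and the lowest mouse, the signal spanned 16.7-fold for *Kap*, 8.96-fold for *Acy3*, 5.70-fold for *G6pc*, 4.69-fold for *Fbp1* and 4.62-fold for *Aldrl6*. All 5 were lowest in *Cd151*+/+ mouse 1, and 4 of the 5 were highest in *Cd151*-/- mouse 4. A difference at least as large in favour of *Cd151*-/- was seen in 0.0737% of the probes detected in all mice for *Kap*, and in 2.9% for *Aldrl6*, 3.61% for *G6pc*, 4.03% for *Acy3* and 4.59% for *Fbp1*.

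When each of the 5 genes was centred on its mean and the 5 were averaged, the profile over *Cd151*+/+ mice 1 to 4 was -1.37, -0.49, -0.11 and 0.32, and over *Cd151*-/- mice 1 to 4 it was 0.67, -0.28, -0.13 and 1.40 on the log2 scale. *Cd151*+/+ mouse 4 was above *Cd151*-/- mice 2 and 3. Over the 8 mice, Pearson's r of the 10 pairs of genes had a median of 0.83 and ranged from 0.47 for *Kap* with *G6pc* to 0.95 for *Fbp1* with *G6pc*, and Spearman's rho had a median of 0.73, from 0.33 to 0.90. With the genotype means taken away the median r was 0.80. The correlations are a description over arrays that all 5 probes share, and *Kap* was closest to *Acy3* (r = 0.87).

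The genes whose signal was most like this profile, among 11232 gene symbols outside the list, included transporters and enzymes known from the proximal tubule. The closest was *Lgmn*, which encodes the lysosomal protease legumain, with r = 0.99 over the 8 mice and 0.99 within genotypes. *Slc22a6*, the organic anion transporter OAT1, *Slc19a1*, the reduced folate carrier, *Pter* and *BC026439* each had r = 0.98, as had *1300013J15Rik* and *1810015P03Rik*, which RefSeq now lists as *Slc47a1* and *Tmed6*. *Agxt2*, a mitochondrial aminotransferase, *Acot1*, an acyl-CoA thioesterase, and *Amn* completed the 10 with r = 0.98 each. Their differences between genotypes were of the size seen in the members, from 0.66 for *Lgmn* (12.42 and 13.08) to 1.11 for *BC026439* (7.72 and 8.83), and all 10 had an adjusted p of 0.918 in limma. These genes were chosen for the likeness, so their differences are a description.

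The differences were also computed within each set of arrays. Within the 4 arrays of lower background, all 5 genes detected in every mouse were higher in *Cd151*-/- glomeruli, with a median of 1.52, whereas within the 4 arrays of higher background 2 of the 5 were, with a median of -0.03. Over all probes detected in every mouse these medians were -0.05 and -0.03. The lower set held the lowest and the highest mouse of the mean profile, *Cd151*+/+ mouse 1 at -1.37 and *Cd151*-/- mouse 4 at 1.40. *G6pc* differed by 1.71 in the lower set and by -0.30 in the higher, *Acy3* by 1.52 and -0.17, *Fbp1* by 1.30 and -0.03, *Aldrl6* by 1.41 and 0.10, and *Kap* by 1.91 and 0.85. *Kap* was thus higher in *Cd151*-/- in both sets, and *Aldrl6* was nearly level in the higher one. Whether the difference itself differed between the sets was tested by an interaction term in limma. For the 5 genes detected in all mice it was 2.01 for *G6pc* (unadjusted p = 0.0120), 1.31 for *Aldrl6* (unadjusted p = 0.0531), 1.33 for *Fbp1* (unadjusted p = 0.102), 1.69 for *Acy3* (unadjusted p = 0.122) and 1.06 for *Kap* (unadjusted p = 0.372). After adjustment the interaction passed for 0 of the 14967 probes, with an adjusted p of 0.977 for each of the 5 genes in limma, and 526 probes had an unadjusted p under 0.05. The labels do not say what the sets of arrays are.

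**Figure D2:**
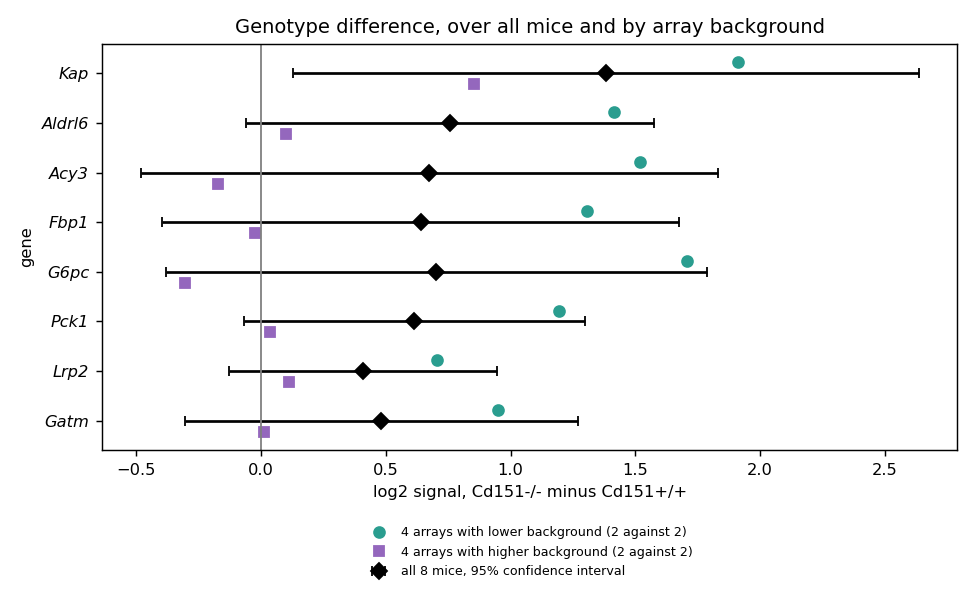
Difference in normalised log2 signal, *Cd151*-/- minus *Cd151*+/+, for the 8 genes over all 8 mice (black diamonds, with bars for the 95% confidence interval) and within the 4 arrays of lower background (green circles) and of higher background (purple squares). The interval of *Kap* alone, 0.13 to 2.64, lies above 0. In each of the 5 genes detected in all mice the lower set gives the larger difference. These are the 5 genes from *Kap* to *G6pc*. *Pck1*, *Lrp2* and *Gatm* were detected in no *Cd151*+/+ mouse and are set against background values.

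Other genes of the proximal tubule were examined as a list of 25, of which 22 had a probe, 20 were tested and 17 were detected in all mice. Of these 17, 16 had a higher mean in *Cd151*-/- mice, with a median difference of 0.63 and a range from -0.19 for *Cyp4b1*, a cytochrome P450, to 1.13 for *Slc13a3*, a dicarboxylate transporter. None passed after adjustment, and at an unadjusted p under 0.05 there was 1 higher and 0 lower of the 20 tested. The 1 was *Slc22a8*, the organic anion transporter OAT3, at 4.60, 4.71, 4.83 and 5.68 in *Cd151*+/+ and 7.15, 6.23, 5.91 and 6.34 in *Cd151*-/- mice. Its genotypes did not overlap, as was true in the same direction for 0.855% of all tested probes, and it was detected in 1 of 4 and 4 of 4 mice. The difference was 1.45 (SE 0.32), with an adjusted p of 0.744 in limma and an exact permutation p of 0.0286. *Slc34a1*, the phosphate transporter of the brush border, averaged 14.02 and 14.49, and *Keg1* 13.65 and 14.14. The median of the 17 was 0.37 when *Cd151*-/- mouse 4 was left out, 0.39 when *Cd151*+/+ mouse 1 was, and 0.96 when *Cd151*+/+ mouse 4 was.

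Among 15 partners of the endocytic receptors and genes of apical endocytosis, 14 had a probe, 13 were tested and 11 were detected in all mice. The median difference of the 11 was 0.12, with 7 higher and 4 lower in *Cd151*-/- mice, and 0 of the 13 had an unadjusted p under 0.05. *Amn*, which carries cubilin to the membrane, was at 11.57, 12.11, 12.92 and 13.03 in *Cd151*+/+ and 13.15, 12.38, 12.60 and 14.14 in *Cd151*-/- mice, with the same lowest and highest mouse as the listed genes. Its means of 12.40 and 13.07 differed by 0.66 (SE 0.43), with an exact permutation p of 0.286. *Folr1*, the folate receptor that megalin helps to internalise, averaged 10.61 and 11.09. *Snx17*, a sorting nexin that recycles receptors, was level at 13.44 and 13.47. *Dab2*, the adaptor on the tail of megalin, averaged 11.92 and 12.27, and *Lrpap1*, the chaperone of megalin, 12.99 and 13.31. *Clcn5*, the endosomal chloride transporter, was detected on no array.

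Of 20 further genes of gluconeogenesis and glucose release, 18 had a probe, 17 were tested and 14 were detected in all mice. The median difference of the 14 was 0.27, with 10 higher and 4 lower in *Cd151*-/- mice, and 0 of the 17 had an unadjusted p under 0.05. *Pcx*, pyruvate carboxylase, which starts the pathway, averaged 7.81 ± 0.38 and 8.53 ± 0.93 (SD, n = 4 each). *Fbp2*, a fructose bisphosphatase, differed by 0.91, from 8.06 to 8.97, but RefSeq also gives that symbol as an older name of *Fbp1*, so the identity of the probe is uncertain. *Tpi1* and *Got2*, enzymes that are not particular to the tubule, averaged 13.47 and 13.72, and 13.39 and 13.63. *Pck2*, the mitochondrial counterpart of *Pck1*, was detected on no array, and *Slc37a4*, which carries glucose-6-phosphate to *G6pc*, on 1.

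The regulators of these genes had a median difference of -0.10 over the 9 of 14 that were detected in all mice, with 4 higher and 5 lower. *Hnf4a*, a nuclear receptor of the proximal tubule, was at 7.47, 7.76, 9.15 and 8.87 in *Cd151*+/+ and 9.86, 8.84, 8.36 and 10.20 in *Cd151*-/- mice. The genotypes overlapped, with a difference of 1.00 (SE 0.48), an unadjusted limma p of 0.0595 and an exact permutation p of 0.171. At an unadjusted p under 0.05, 0 of the 12 tested were higher and 2 were lower in *Cd151*-/- mice. *Cebpb*, a leucine zipper factor, was among them at 11.84 and 11.17. *Ppargc1a*, a coactivator of gluconeogenic genes, averaged 6.93 and 6.26, and *Esrra*, an orphan nuclear receptor, 10.95 and 11.23.

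In the pathways around *Gatm*, *Acy3* and *Aldrl6*, 13 genes of creatine, acylamino acid and inositol metabolism were listed, of which 10 were tested and 7 were detected in all mice. The median difference of the 7 was 0.05, with 4 higher and 3 lower. *Acy1*, the aminoacylase of N-acetylated amino acids, differed by 0.67 and *Slc6a8*, the creatine transporter, by 0.47. Of the 10, 0 were higher and 1 was lower at an unadjusted p under 0.05, namely *Isyna1*, which makes inositol, at 10.81 and 10.08. Its difference of -0.72 had an unadjusted limma p of 0.0399 and an exact permutation p of 0.114. *Ckb*, the brain-type creatine kinase, differed by -0.55, and *Akr1a4*, an aldehyde reductase, averaged 14.54 and 14.58.

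Markers of other cells of the isolate were compared as well, and their part in the differences was not tested. Genes of the loop, distal tubule and collecting duct had a median difference of -0.48 over the 7 of 13 that were detected in all mice, with 1 higher and 6 lower. Their summed signal, on the log2 scale, was 14.88 to 15.74 in *Cd151*+/+ and 14.39 to 15.16 in *Cd151*-/- mice, whereas that of the 17 proximal tubule genes was 15.55 to 17.02 and 16.21 to 17.33. *Umod*, the uromodulin gene of the thick ascending limb, averaged 14.31 and 13.77, *Slc12a1*, the sodium, potassium and chloride cotransporter of that segment, 13.31 and 12.79, and *Cldn16*, a claudin of it, 10.78 and 10.11. *Slc12a3*, of the distal tubule, differed by -0.13, and the 7 differences ranged from -0.67 to 0.04. *Aqp2*, *Fxyd4* and *Hsd11b2*, listed for the collecting duct, were not detected in all mice. For both lists the summed signals of the genotypes overlapped. Podocyte genes had a median of -0.31, with 0 higher and 7 lower of the 7 detected in all mice, and summed signals of 16.75 to 16.89 and 16.49 to 16.92. *Plce1*, a phospholipase of podocytes, differed by -0.56 at an unadjusted limma p of 0.0414, and *Actn4*, an actin-bundling protein of foot processes, by -0.52.

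Glomerular endothelial genes had a median of -0.40 over 8 genes, with 1 higher and 7 lower, and summed signals of 15.54 to 16.11 in *Cd151*+/+ and 15.06 to 16.01 in *Cd151*-/- mice. *Ehd3* differed by -0.63, the junction gene *Cdh5* by -0.54, *Egfl7* by -0.36 and *Emcn* by -0.13. Mesangial and smooth muscle genes had a median of -0.20 over 6 genes, 2 higher and 4 lower, with sums of 14.04 to 14.47 and 13.93 to 14.68. *Pdgfrb*, the receptor that marks mesangial cells and pericytes, differed by -0.74 at an unadjusted limma p of 0.0399, the smooth muscle genes *Myh11* by -0.52 and *Acta2* by 0.38, and *Des*, the desmin gene, by -0.35. In leukocyte genes the median was 0.22 over 5 genes, 3 higher and 2 lower, with sums of 10.99 to 12.21 and 11.29 to 12.30, and the defining markers *Ptprc*, *Emr1* and *Itgam* were detected on no array. The lysozyme probes *Lyz* and *Lyzs* differed by 0.25 and -0.14 and *Cd68*, a macrophage gene, by 0.29. Of the erythroid genes, 2 were detected in all mice and both were lower, with sums of 15.19 to 15.60 and 14.10 to 15.18. *Alas2*, the first enzyme of haem synthesis in red cells, differed by -2.57 at an unadjusted limma p of 0.00519, and *Hba-a1*, an alpha globin gene, by -0.69 at 0.0276. None of these marker genes passed after adjustment in limma.

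**Figure D3:**
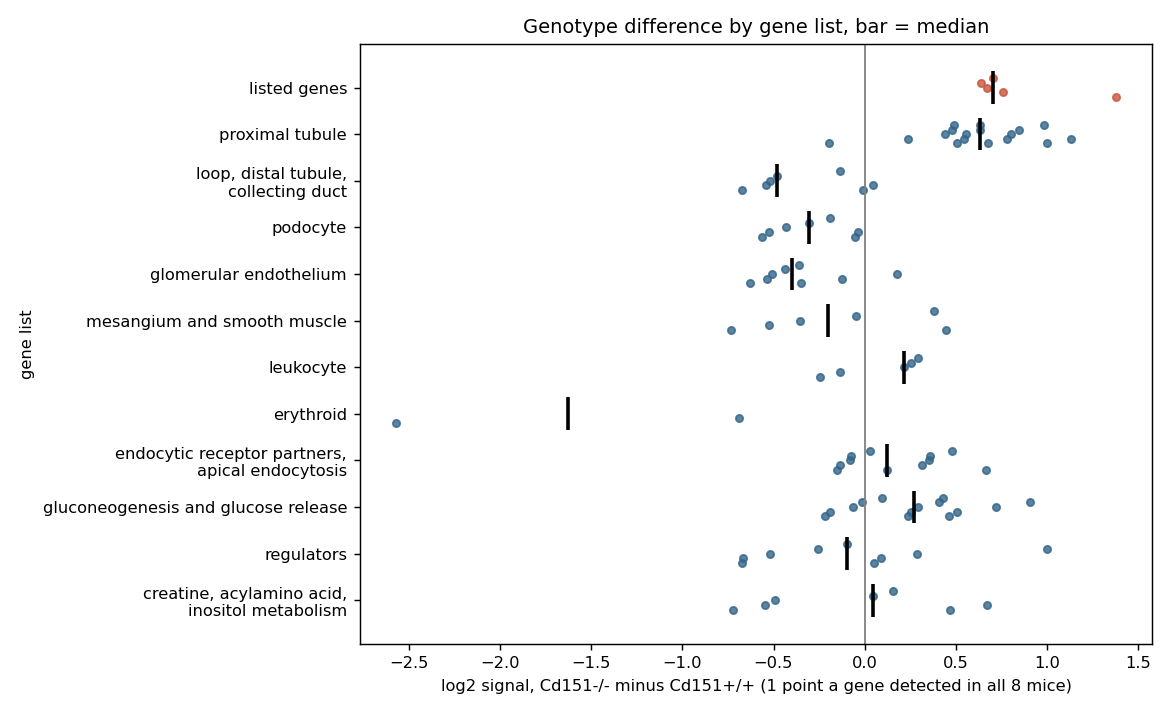
Difference in normalised log2 signal, *Cd151*-/- minus *Cd151*+/+, of each gene detected in all 8 mice, by gene list, with the 5 listed genes in red on top and a black bar at each median. The listed genes (median 0.70) and the other proximal tubule genes (median 0.63) lie to the right of 0, apart from *Cyp4b1*, and the medians of the loop and distal tubule (-0.48), podocyte (-0.31) and endothelial lists (-0.40) lie to its left.

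**Figure D4:**
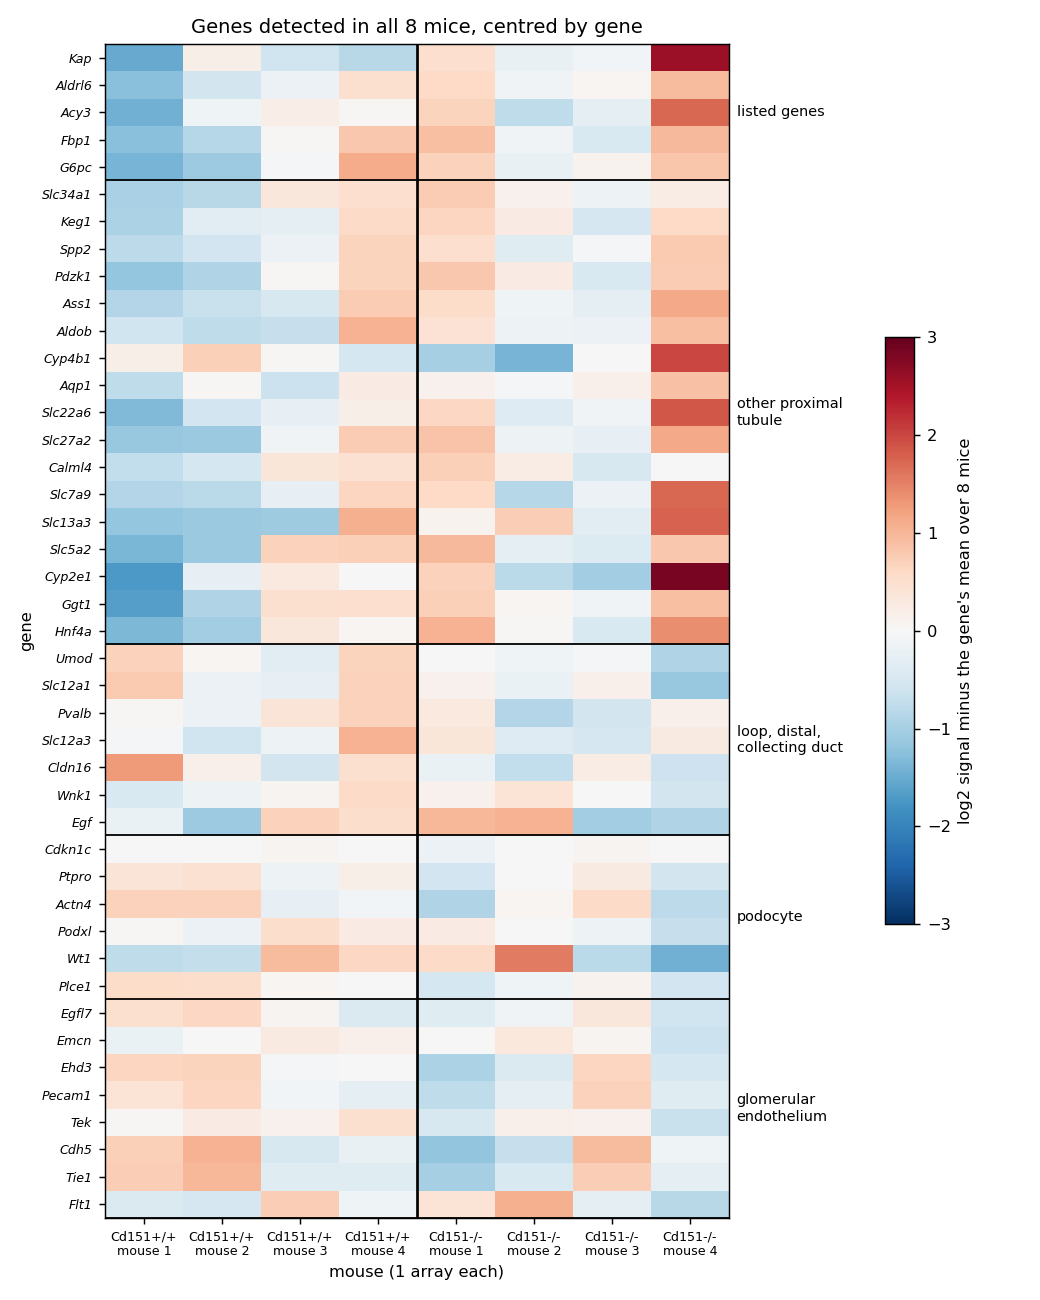
Normalised log2 signal of each gene in each mouse, minus the mean of the gene over the 8 mice, for the 5 listed genes and for other proximal tubule, distal, podocyte and endothelial genes (rows), with red for higher and blue for lower and the genotypes separated by the vertical line. *Cd151*+/+ mouse 1 is the lowest column of the listed genes at a mean of -1.37 and *Cd151*-/- mouse 4 the highest at 1.40.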

How the data were processed

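Glomerular RNA of 8 mice was amplified, biotin-labelled and hybridised by the authors to Illumina MouseRef-8 BeadChips. The authors deposited, for 25697 probes and each array, the signal intensity, which is the mean brightness of a probe's beads with no background subtraction or normalisation, and a detection p-value against the negative controls. The submitters' processing notes name GenomeStudio, and the values in the study had been normalised there by cubic spline.

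Groups were taken from the sample titles. In R 4.3.3 with limma 3.58.1, neqc was run with backgrounds inferred from the detection p-values, an offset of 16 and quantile normalisation. Probes detected at 0.05 or lower on at least 1 array (14967) were fitted with lmFit and eBayes on the log2 scale, with Benjamini-Hochberg adjustment over all of them, and only the rows of the genes named here are given. Exact permutation tests used all 70 relabelings and were two-sided. Where a gene was detected in no mouse of a genotype, its fold is given against the dimmest detected probe of each array of that genotype. This is no strict lower bound where mice of the other genotype lacked detection too. The fit was tested on simulated data. The members and gene lists were chosen with earlier results of these data known.

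Named genes are the members, *Cd151*, the 10 genes most correlated with the mean member profile, and, of each list, those at an unadjusted p of 0.05 or lower, the 2 with the largest difference and the 2 with the highest mean. A few others (*Dab2*, *Slc6a8*, *Slc12a3*, *Cyp4b1* and genes named as not detected, or not detected in all mice) were added for their role after their values were seen. Symbols were matched to RefSeq genes, 17240 of 18120. Alternatives were no normexp correction, cubic spline or 75th percentile scaling, an offset of 50, no filter or detection on all 4 arrays of a genotype, a trended and robust variance, array weights, the mouse number or the background set as a block, the mean of a gene's probes, and each mouse left out. The interaction with the background sets was chosen after seeing the data. The real-time PCR, protein and C57BL/6 experiments were not analysed here, and the results of a few single genes are not reported here.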

Additional observations from a re-analysis of the deposited data

How the results depend on the processing

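In limma, 0 members passed after adjustment in the main analysis and under each of the 19 alternatives, and the lowest adjusted p of a member was 0.0915, for *Aldrl6* with array weights. At an unadjusted p under 0.05, the count of members higher in *Cd151*-/- mice was 1 in the main analysis, 0 with no normexp correction or with no detection filter, 2 with a trended and robust variance or with the background set as a block, and 4 with array weights. The share of all tested probes that was higher at this p was 1.69% in the main analysis, 1.74% with the trended variance, 5.21% with the background set as a block and 15.6% with array weights. The count of members ranged from 0 (without *Cd151*+/+ mouse 1 or 3, or *Cd151*-/- mouse 4) to 3 (without *Cd151*+/+ mouse 4 or *Cd151*-/- mouse 2) when 1 mouse was left out. The count of other proximal tubule genes was 1 in the main analysis and 16 with array weights. It was 2 with a trended and robust variance, with the background set as a block or with the mean of a gene's probes. Array weights were 1.734, 1.893, 0.581 and 0.609 for *Cd151*+/+ mice 1 to 4 and 2.790, 1.350, 0.472 and 0.484 for *Cd151*-/- mice 1 to 4. With 1 mouse left out, the count of other proximal tubule genes ranged from 1 to 13. It was 13 when *Cd151*+/+ mouse 4 was omitted, 6 when *Cd151*-/- mouse 3 was, and 3 when *Cd151*+/+ mouse 3 or *Cd151*-/- mouse 2 was. Over all probes the share was between 0.826% and 4.25% with 1 mouse left out, and 2.93% without *Cd151*+/+ mouse 4. The causes were not tested. The deviations of same-numbered mice of the 2 genotypes correlated at r = -0.67, -0.42, -0.59 and 0.07. Same-numbered mice lay in opposite background sets throughout, so these correlations cannot tell whether the numbers pair them. With the mouse number as a replicate block the counts were 1 member and 3 other proximal tubule genes. The median difference of the 5 genes detected in all mice kept its sign under every alternative, between 0.35 and 1.10. Changing the filter, the variance, the blocks or the averaging of probes could not move it, and it stayed at 0.70. Within the arrays of higher background, which were not among the alternatives, it was -0.03. Signal over background limits *Pck1*, *Lrp2* and *Gatm*, whose differences were between 0.13 and 0.76, 0.05 and 0.51, and 0.04 and 0.64 over the alternatives in which they were tested. None of the 3 was tested where all 4 arrays of a genotype had to detect a probe, and *Gatm* was not tested without *Cd151*-/- mouse 4, the only mouse in which it was detected.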
